A study of Mus musculus with 16 samples.

Results

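The genes described here encode enzymes that use tryptophan and related amino acids in immune cells: Ido1, Ido2, Kynu, Kmo, Il4i1, Wars and Bcat1, 7 of the 23356 genes in the table. They were chosen by gene symbol from the table, for what the enzymes do, and each symbol had 1 row. RNA was sequenced from bone marrow-derived DCs (BMDCs), which are dendritic cells grown from mouse bone marrow with GM-CSF and IL-4. The cells came from C57BL/6 wild-type mice and from Tmem173-/-, Irf1-/- and Irf3/7-/- mice, which lack STING, IRF1, or both IRF3 and IRF7 in the whole animal. Each genotype was left untreated or stimulated for 18 h with c-di-GMP, a bacterial cyclic dinucleotide that activates STING. The labels give a dose of 25 µg/ml, and the study's figure legends give a different one. The 16 samples made 8 conditions of 2 samples each, and the ages of the mice are not in the labels.

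IDO1 and IDO2 open the tryptophan ring, the first and limiting step of the kynurenine pathway. KMO hydroxylates kynurenine, and KYNU cleaves kynurenine and its hydroxylated product to anthranilic acids, on the way to NAD. IL4I1 is a secreted oxidase that deaminates phenylalanine, tryptophan and other aromatic amino acids. WARS charges tRNA with tryptophan for protein synthesis, and BCAT1 is the cytosolic transaminase of leucine, isoleucine and valine. In dendritic cells, IDO1 and IL4I1 are known for restraining T cells, by depleting amino acids and by making metabolites that act on the aryl hydrocarbon receptor. IFN-γ is a classical inducer of IDO1 and WARS.

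Expression was given as FPKM, which counts sequenced fragments relative to transcript length and to the total mapped in a sample. The authors' software combined the samples of a condition, so each gene had 1 FPKM per condition with the bounds of an interval, and no spread between replicates or p-value can be given. Depth is unknown from FPKM. The median interval reached from 25.2% to 25.7% of the FPKM to either side, over the 4710 genes that reached 10 FPKM throughout. A comparison tested the genes that reached 1 FPKM on either side. It was called when it differed more than 2-fold on the log2(FPKM + 0.1) scale and the authors' intervals did not overlap. The added 0.1 FPKM makes the fold changes of low genes smaller. Intervals of a log2 change are 95% intervals computed from the authors' bounds, and they cover only what the authors' software modelled.

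In Tmem173-/- BMDCs the Tmem173 gene had 8.97 FPKM without and 7.49 FPKM with c-di-GMP, and it ranged from 77.0 to 118 FPKM in the other genotypes. Irf1 remained at 25.9 and 116 FPKM in untreated and treated Irf1-/- BMDCs, where wild-type BMDCs had 149 and 245 FPKM. Irf7 reached 4.97 FPKM in treated Irf3/7-/- BMDCs and 687 FPKM in treated wild-type BMDCs, while Irf3 lay at 20.2 and 15.8 FPKM in these. Untreated and treated Tmem173-/- BMDCs also had low Irf1 (24.1 and 23.3 FPKM) and low Irf7 (3.17 and 3.37 FPKM). Low levels of Irf1 or Irf7 thus did not mark their own knockouts alone. In untreated cells Irf3 was lower in Irf3/7-/- (7.74 FPKM, 5.55 to 9.96) than in wild-type BMDCs (19.9 FPKM, 15.4 to 24.5). The values cover whole genes, so reads from outside a deleted part are included. Irf3 did not mark the treated cells labelled Irf3/7-/-, and why it did so only in untreated cells was not tested. All 5 dendritic cell markers exceeded 1 FPKM in every condition, with summed levels from 4237 to 6025 FPKM. Markers of other cells differed between genotypes. The 3 neutrophil markers found of 4 summed to 18706 and 13503 FPKM in untreated and treated Tmem173-/- BMDCs and to between 1349 and 3885 FPKM elsewhere. Among them Mpo did not follow the sum. Mpo was 19.1 and 15.8 FPKM in untreated and treated Tmem173-/- and 24.7 and 12.6 FPKM in Irf1-/- BMDCs. It was 16.5 and 13.7 FPKM in Irf3/7-/- and 3.70 and 2.90 FPKM in wild-type BMDCs. The 6 T and NK cell markers summed to 88.3 and 63.7 FPKM in untreated and treated wild-type, 2.97 and 2.49 FPKM in Tmem173-/-, 7.46 and 11.0 FPKM in Irf1-/- and 137 and 238 FPKM in Irf3/7-/- BMDCs. Of these, the NK cell gene Ncr1 was listed at 0 in untreated Tmem173-/- and in both Irf1-/- conditions. The 5 macrophage markers found of 6 summed to 447 and 426 FPKM in Tmem173-/- BMDCs and to between 153 and 273 FPKM elsewhere. Of these, Mertk was lower in untreated and treated Tmem173-/- (2.83 and 3.74 FPKM) than in wild-type BMDCs (4.89 and 16.9 FPKM). The 5 markers of mature DCs went from 653 to 2793 FPKM with c-di-GMP in wild-type, from 603 to 2730 FPKM in Irf1-/- and from 528 to 2921 FPKM in Irf3/7-/- BMDCs, and were 366 and 342 FPKM in Tmem173-/- BMDCs. The 4 basophil and mast cell markers summed to 91.7 and 140 FPKM in Irf3/7-/- BMDCs and to between 33.8 and 53.0 FPKM elsewhere. Fewer cells of a type and less RNA per cell cannot be told apart in these bulk samples.

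The genes lie on 6 mouse chromosomes (GRCm38). Ido1 (chr8:24584136-24597009) and Ido2 (chr8:24531892-24576333) are neighbours on the minus strand, 7802 bases apart. Kynu is at chr2:43555329-43682715 on the plus strand, Kmo at chr1:175620381-175662116 on the plus strand, Wars at chr12:108860030-108894174 on the minus strand and Bcat1 at chr6:144993835-145076184 on the minus strand. Il4i1 (chr7:44816387-44840809, plus strand) shares its locus in the table with 4 other genes, Atf5, Nup62, Nup62-il4i1 and Tbc1d17. Reads in this locus had to be divided among them, so its values are uncertain.

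The RefSeq promoters (GRCm38.p6) at hand covered 3 of the 7 genes, with 4 starts. These are Kmo, Il4i1 and Bcat1. No promoter of Ido1, Ido2, Kynu or Wars was at hand, so none of these was searched. The 250 bases before a start are shown 5′ to 3′ on the strand of the gene, for chr1:175631943-175632192 (Kmo, plus strand), chr7:44836038-44836287 (Il4i1, plus strand) and the outer start of Bcat1 at chr6:145076158-145076407 (minus strand), with the single motif match in capitals.
Kmo: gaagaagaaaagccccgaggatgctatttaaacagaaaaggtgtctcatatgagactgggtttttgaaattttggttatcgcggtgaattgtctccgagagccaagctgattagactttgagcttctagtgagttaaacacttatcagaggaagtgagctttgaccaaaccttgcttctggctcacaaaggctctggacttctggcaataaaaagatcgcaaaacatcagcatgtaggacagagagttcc
Il4i1: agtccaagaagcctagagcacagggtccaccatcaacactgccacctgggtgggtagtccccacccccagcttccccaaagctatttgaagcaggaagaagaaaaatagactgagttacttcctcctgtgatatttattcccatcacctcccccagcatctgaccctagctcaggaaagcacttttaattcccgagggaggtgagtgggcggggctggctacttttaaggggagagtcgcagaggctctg
Bcat1: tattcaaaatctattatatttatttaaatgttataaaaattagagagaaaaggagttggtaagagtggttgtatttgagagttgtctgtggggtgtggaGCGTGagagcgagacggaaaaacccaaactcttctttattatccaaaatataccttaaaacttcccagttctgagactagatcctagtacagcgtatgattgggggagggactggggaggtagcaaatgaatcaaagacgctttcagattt
Both strands were searched for GAAANNGAA (the core of an interferon-stimulated response element), TTCNNNGAA (GAS), TGATGNAA (the core of an amino acid response element) and GCGTG (the core of a xenobiotic response element, which the aryl hydrocarbon receptor binds). Only GCGTG was found, in this Bcat1 promoter, and the second Bcat1 start had no match. Among 32817 mouse promoters of this length, 28.1% hold GCGTG, 7.12% GAAANNGAA, 7.01% TTCNNNGAA and 3.45% TGATGNAA, so the match is a description of the sequence.

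**Figure D1:**
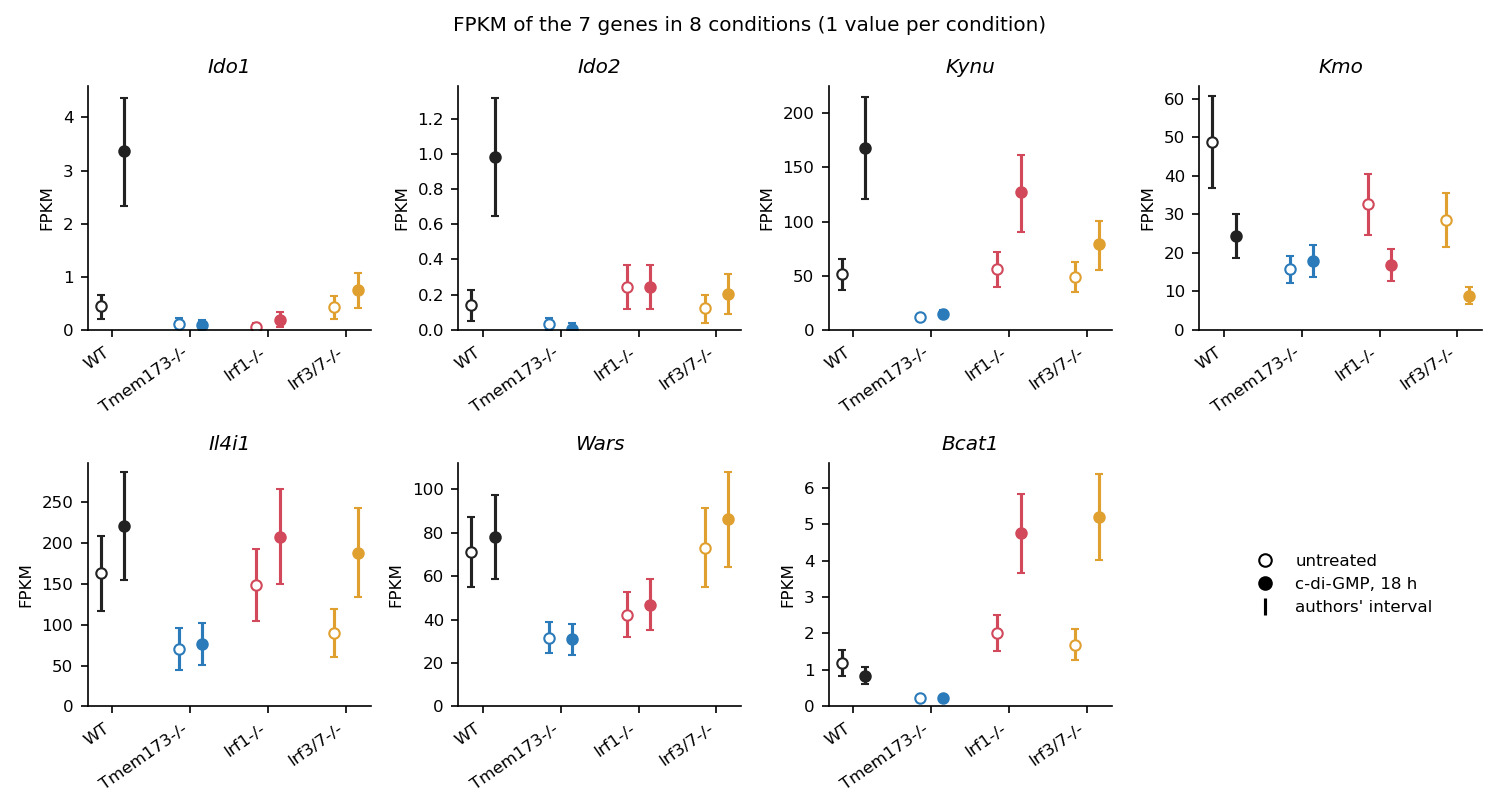
FPKM (vertical axis, linear from 0) of the 7 genes in untreated (open points) and c-di-GMP-treated (filled points) BMDCs of 4 genotypes. Bars are the authors' intervals. Ido1 and Ido2 were highest in treated wild-type BMDCs, Kmo was highest in untreated wild-type BMDCs, and Bcat1 was highest in treated Irf1-/- and Irf3/7-/- BMDCs.

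Ido1, the entry enzyme of the pathway, rose with c-di-GMP in wild-type cells and stayed low elsewhere. Its level was 0.447 FPKM (interval 0.205 to 0.665) in untreated and 3.36 FPKM (2.33 to 4.37) in treated wild-type BMDCs. The corresponding levels were 0.115 and 0.0924 FPKM in Tmem173-/-, 0.0629 and 0.182 FPKM in Irf1-/-, and 0.422 and 0.751 FPKM in Irf3/7-/- BMDCs. The interval of treated wild-type BMDCs lay above all others, and the remaining 7 conditions formed a chain in which each interval overlapped its neighbours in rank. The log2 change in wild-type BMDCs was 2.66 (1.92 to 3.40), larger than that of 97.8% of the genes tested. Even so, treated wild-type BMDCs had more Ido1 than only 17.8% of the genes that reached 1 FPKM.

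In treated cells, Ido1 was lower than in wild-type BMDCs by log2 differences of -4.17 (-4.96 to -3.37) in Tmem173-/-, -3.61 (-4.45 to -2.78) in Irf1-/- and -2.02 (-2.73 to -1.32) in Irf3/7-/- BMDCs. The change with c-di-GMP within the knockouts was not tested, because Ido1 was below 1 FPKM in both conditions. The difference between each knockout's log2 change and that of wild-type BMDCs was -2.82 (-4.04 to -1.61) for Tmem173-/-, -1.87 (-3.05 to -0.69) for Irf1-/- and -1.96 (-3.07 to -0.85) for Irf3/7-/-. These differences are a description, because Ido1 reached 1 FPKM only in treated wild-type BMDCs and the changes they subtract rest on low values. With a pseudocount of 0.01 FPKM, the interval for Irf1-/- no longer left out 0, and the difference was -1.48. The nonzero bounds of Ido1 fell on whole multiples of 0.0256 FPKM, to within 0.02 of a step. Its FPKM was 131 such steps in treated and 17.5 in untreated wild-type BMDCs, 29.4 in treated Irf3/7-/-, 7.13 in treated Irf1-/- and 2.46 in untreated Irf1-/- BMDCs, so the low values rest on few steps.

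Ifng, the gene for IFN-γ, rose from 34.6 to 299 FPKM in wild-type BMDCs with c-di-GMP, was listed at 0 in Tmem173-/- BMDCs, and went from 1.26 to 25.5 FPKM in Irf1-/- and from 44.0 to 1155 FPKM in Irf3/7-/- BMDCs. Treated Irf3/7-/- BMDCs thus had more Ifng and less Ido1 than treated wild-type BMDCs. The part of Ifng or of the T and NK cell markers in the levels of Ido1 was not tested.

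Ido2, the close relative of Ido1, stayed below 1 FPKM in every condition and was tested in no comparison. Its level was 0.139 FPKM in untreated and 0.984 FPKM (0.646 to 1.32) in treated wild-type BMDCs. In the knockouts it was 0.0321 and 0.00459 FPKM (Tmem173-/-), 0.242 and 0.245 FPKM (Irf1-/-) and 0.125 and 0.203 FPKM (Irf3/7-/-), untreated and treated. The interval of treated wild-type BMDCs again lay above all others. Ido1 exceeded Ido2 by a ratio of 3.20 and 3.41 in untreated and treated wild-type and 3.39 and 3.70 in Irf3/7-/- BMDCs. In Irf1-/- BMDCs the ratio was 0.260 and 0.744, where untreated Ido1 lay at 0.0629 FPKM against 0.447 FPKM in wild-type and untreated Ido2 at 0.242 FPKM against 0.139 FPKM. These ratios rest on low values and are given without a test.

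Kynu was induced in wild-type BMDCs and was far more abundant than Ido1. Its level was 51.5 FPKM (36.4 to 65.3) in untreated and 168 FPKM (121 to 215) in treated wild-type BMDCs, the latter above 94.5% of the genes with at least 1 FPKM. It was 12.0 and 15.0 FPKM in Tmem173-/-, 55.8 and 127 FPKM in Irf1-/-, and 49.0 and 78.9 FPKM in Irf3/7-/- BMDCs. The intervals of both Tmem173-/- conditions lay below all others, and those of treated wild-type and treated Irf1-/- BMDCs overlapped. Kynu rose with a log2 change of 1.70 (1.13 to 2.27) in wild-type and 1.18 (0.61 to 1.76) in Irf1-/- BMDCs. The value in Irf3/7-/- BMDCs was 0.68 (0.12 to 1.25), under the threshold, and in Tmem173-/- BMDCs 0.32 (-0.17 to 0.82).

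Relative to wild-type BMDCs, the log2 change of Kynu was smaller by -1.38 (-2.13 to -0.62) in Tmem173-/- and by -1.02 (-1.82 to -0.21) in Irf3/7-/- BMDCs. For Irf1-/- BMDCs the difference was -0.52 (-1.33 to 0.29), and its interval included 0. In treated cells Kynu was lower than in wild-type BMDCs in Tmem173-/- (-3.47) and Irf3/7-/- BMDCs (-1.09), and not called in Irf1-/- BMDCs (-0.41, -0.98 to 0.17).

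Kmo, the hydroxylase that competes with KYNU for kynurenine, moved the other way. Its level was 48.7 FPKM (36.7 to 60.6) in untreated and 24.4 FPKM (18.7 to 30.2) in treated wild-type BMDCs. In the knockouts it was 15.7 and 18.0 FPKM (Tmem173-/-), 32.6 and 16.9 FPKM (Irf1-/-) and 28.5 and 8.87 FPKM (Irf3/7-/-). Treated Irf3/7-/- BMDCs had the lowest level, with an interval (6.61 to 11.1) below all others. Kmo fell with a log2 change of -1.67 (-2.18 to -1.16) in Irf3/7-/- BMDCs. In wild-type (-0.99) and Irf1-/- BMDCs (-0.95) the intervals of treated and untreated cells did not overlap, but the values were just under 2-fold. In Tmem173-/- BMDCs the change was 0.19 (-0.27 to 0.66), a difference from wild-type of 1.19 (0.51 to 1.86). For Irf3/7-/- the difference from wild-type was -0.68 (-1.38 to 0.03), which included 0. In treated cells Kmo was lower than in wild-type in Irf3/7-/- BMDCs (-1.45, -1.95 to -0.96), and not called in Irf1-/- (-0.53) or Tmem173-/- BMDCs (-0.44).

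The ratio of Kynu to Kmo, both in FPKM, went from 1.06 to 6.88 with c-di-GMP in wild-type, from 1.71 to 7.52 in Irf1-/- and from 1.72 to 8.89 in Irf3/7-/- BMDCs. In Tmem173-/- BMDCs it was 0.762 and 0.835. In treated cells the intervals of this ratio overlapped among the 3 genotypes with STING, although the levels of Kynu and Kmo were both lower in treated Irf3/7-/- than in treated wild-type BMDCs.

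Among 13 other genes of the kynurenine pathway and NAD synthesis, 8 were tested with c-di-GMP in each genotype. None was higher and 2 were lower in wild-type, Irf1-/- and Irf3/7-/- BMDCs, and none was called in Tmem173-/- BMDCs. Over all genes tested, 20.5% were called in wild-type, 17.5% in Irf1-/-, 17.9% in Irf3/7-/- and 0.0552% in Tmem173-/- BMDCs. A count of 2 of 8 lies near the first 3 shares. The 2 lower genes were the same in the 3 genotypes. Haao, the dioxygenase that acts after KYNU, fell from 13.7 to 1.28 FPKM in wild-type, from 12.4 to 0.927 FPKM in Irf1-/- and from 7.32 to 2.51 FPKM in Irf3/7-/- BMDCs, with 13.9 and 13.1 FPKM in Tmem173-/- BMDCs. Got2, a mitochondrial transaminase that can act on kynurenine, fell from 91.3 to 32.8 FPKM in wild-type BMDCs. Qprt, which makes the nicotinic acid nucleotide from quinolinic acid, and Tdo2, the liver form of the entry enzyme, were below 1 FPKM in every condition. The median log2 change of the 8 genes was -0.13 in wild-type, -0.31 in Irf1-/- and -0.23 in Irf3/7-/- BMDCs, beside 0.003, 0.002 and 0.004 over all genes tested.

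Il4i1 was the most abundant of the 7 genes in every condition. Its level was 163 FPKM (117 to 210) in untreated and 221 FPKM (156 to 287) in treated wild-type BMDCs. It was 70.4 and 76.5 FPKM in Tmem173-/-, 149 and 208 FPKM in Irf1-/-, and 90.0 and 189 FPKM in Irf3/7-/- BMDCs. The 3 treated genotypes with STING overlapped in their intervals, and untreated Irf3/7-/- BMDCs overlapped with both Tmem173-/- conditions. Il4i1 rose in Irf3/7-/- BMDCs (1.07, 0.44 to 1.69), and the values in wild-type (0.44), Irf1-/- (0.49) and Tmem173-/- BMDCs (0.12) were not called. The difference of the change between Irf3/7-/- and wild-type BMDCs was 0.63 (-0.23 to 1.49), which included 0. In treated cells Il4i1 was lower than in wild-type in Tmem173-/- BMDCs (-1.53, -2.18 to -0.88), and the values were -0.09 in Irf1-/- and -0.23 in Irf3/7-/- BMDCs. Among the genes of the shared locus, Nup62 lay between 38.7 and 56.4 FPKM in the 8 conditions, and Atf5 between 14.4 and 41.5 FPKM.

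**Figure D2:**
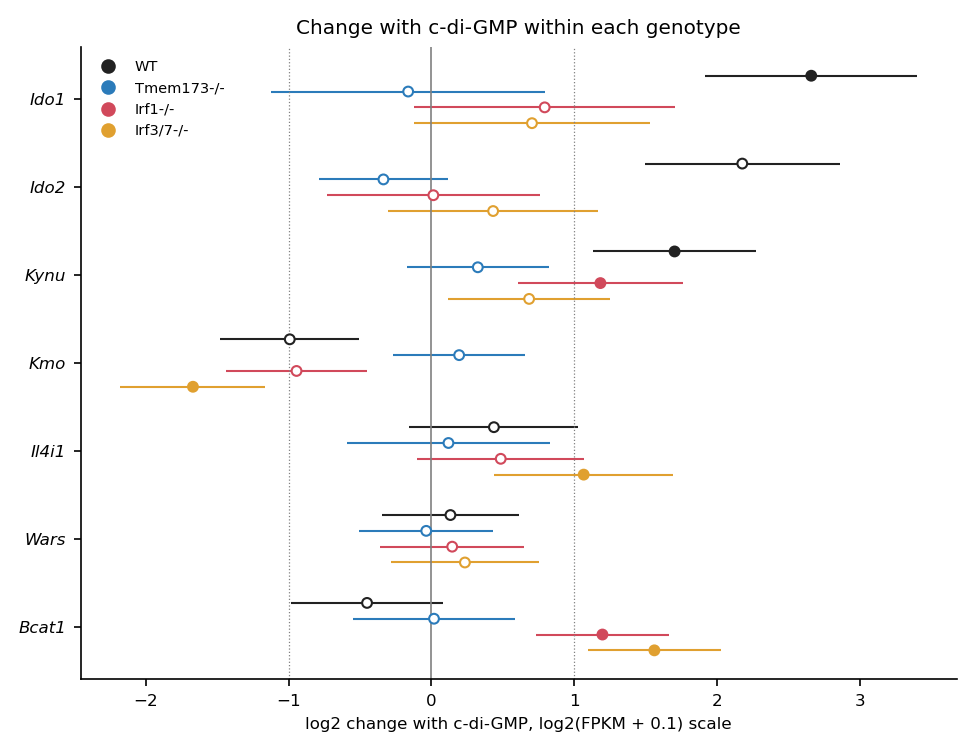
Log2 change with c-di-GMP (horizontal axis) of the 7 genes in 4 genotypes, with 95% intervals from the authors' bounds. Filled points were called, and dotted lines mark 2-fold. Ido1 was called only in wild-type (2.66), Kynu in wild-type and Irf1-/-, Kmo and Il4i1 in Irf3/7-/-, and Bcat1 in Irf1-/- and Irf3/7-/- BMDCs. Ido2 was never tested, nor was Ido1 within the knockouts.

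Wars showed no called change with c-di-GMP in any genotype, but it differed between genotypes. Its level was 71.1 FPKM (54.9 to 87.1) and 77.9 FPKM (58.8 to 97.2) in untreated and treated wild-type BMDCs. It was 31.7 and 30.9 FPKM in Tmem173-/-, 42.3 and 46.8 FPKM in Irf1-/-, and 73.1 and 86.1 FPKM in Irf3/7-/- BMDCs. The wild-type and Irf3/7-/- conditions overlapped with each other, as did the Irf1-/- and Tmem173-/- conditions. Treated Irf1-/- BMDCs (35.1 to 58.4) also overlapped with untreated wild-type and untreated Irf3/7-/- BMDCs (54.8 to 91.5). Wars was lower than wild-type in Tmem173-/- BMDCs, untreated (-1.16) and treated (-1.33). In Irf1-/- BMDCs the intervals lay apart from wild-type of the same treatment, untreated (-0.75) and treated (-0.74), but the differences were under 2-fold.

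The 3 genes with the pattern most like Wars over the 8 conditions were Gzmc (Pearson r = 0.990), Gzma (0.990) and Cd3g (0.988), among 870 genes compared. These are 2 granzyme genes of cytotoxic lymphocytes and a subunit of the T cell receptor complex. The 870 genes had an SD of at least 1 log2 unit. Wars itself had an SD of 0.595, so genes that varied as little as Wars were not compared. The 4 conditions with the highest Wars were the 4 with the highest summed T and NK cell markers, from 63.7 to 238 FPKM, and the other 4 had sums of 2.49 to 11.0 FPKM. Gzma reached 900 FPKM in treated Irf3/7-/- BMDCs and was listed at 0 in its lowest condition. The part of these cells or of Ifng in the level of Wars was not tested.

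**Figure D3:**
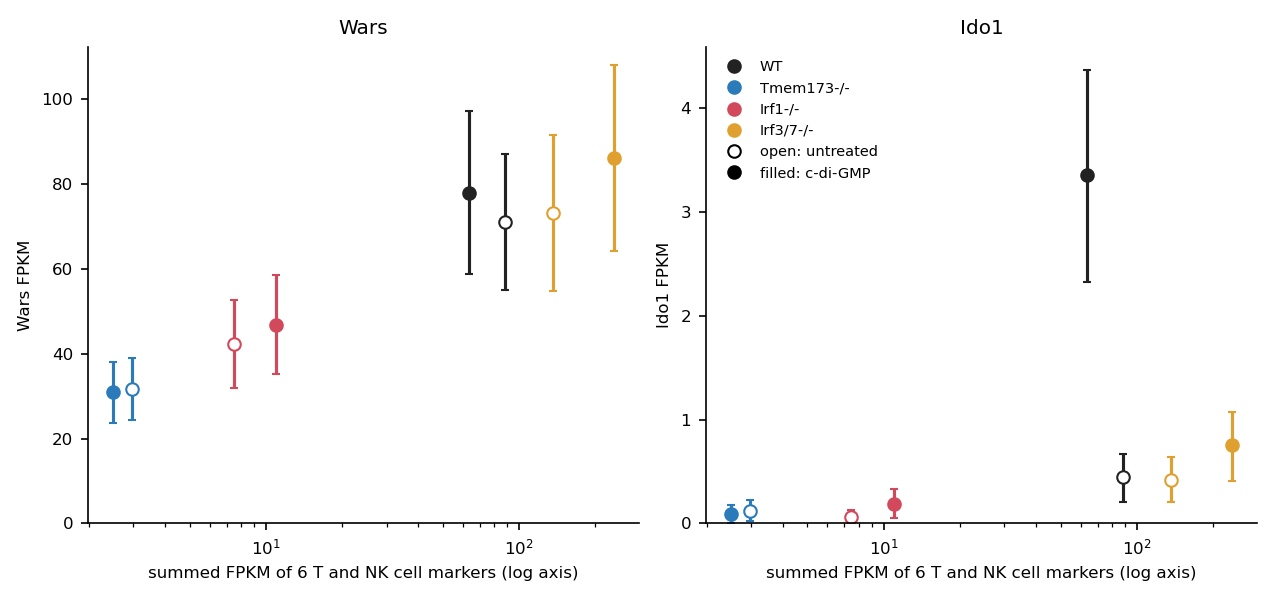
FPKM of Wars (left) and Ido1 (right) against the summed FPKM of 6 T and NK cell markers (log axis) in the 8 conditions, with the authors' intervals. Wars was lowest in the conditions with the lowest marker sums, and Ido1 stood out only in treated wild-type BMDCs (3.36 FPKM).

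Wars was set beside 19 other cytosolic aminoacyl-tRNA synthetases, the enzymes that load the other amino acids. With c-di-GMP none of the 19 was higher in any genotype. In wild-type BMDCs 3 were lower, Vars (36.2 to 13.2 FPKM), Iars (33.0 to 12.6 FPKM) and Farsb (31.4 to 13.3 FPKM), which load valine, isoleucine and phenylalanine. Vars and Iars were lower in Irf1-/- BMDCs, all 3 were lower in Irf3/7-/- BMDCs, and none was called in Tmem173-/- BMDCs. Over all genes tested, 20.5% were called in wild-type, 17.5% in Irf1-/-, 17.9% in Irf3/7-/- and 0.0552% in Tmem173-/- BMDCs. The counts of called genes are therefore not particular to the synthetases. The median log2 change of the 19 was -0.54 in wild-type, -0.45 in Irf1-/-, -0.56 in Irf3/7-/- and -0.07 in Tmem173-/- BMDCs. The medians over all genes tested were 0.003, 0.002, 0.004 and -0.02 in the same order. Wars had values of 0.13 (-0.35 to 0.62), 0.15 (-0.36 to 0.65), 0.23 (-0.28 to 0.75) and -0.04 (-0.50 to 0.43), again in this order. Of the 19, 15 were below 0 in wild-type, 16 each in Irf1-/- and Irf3/7-/-, and 13 in Tmem173-/- BMDCs.

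**Figure D4:**
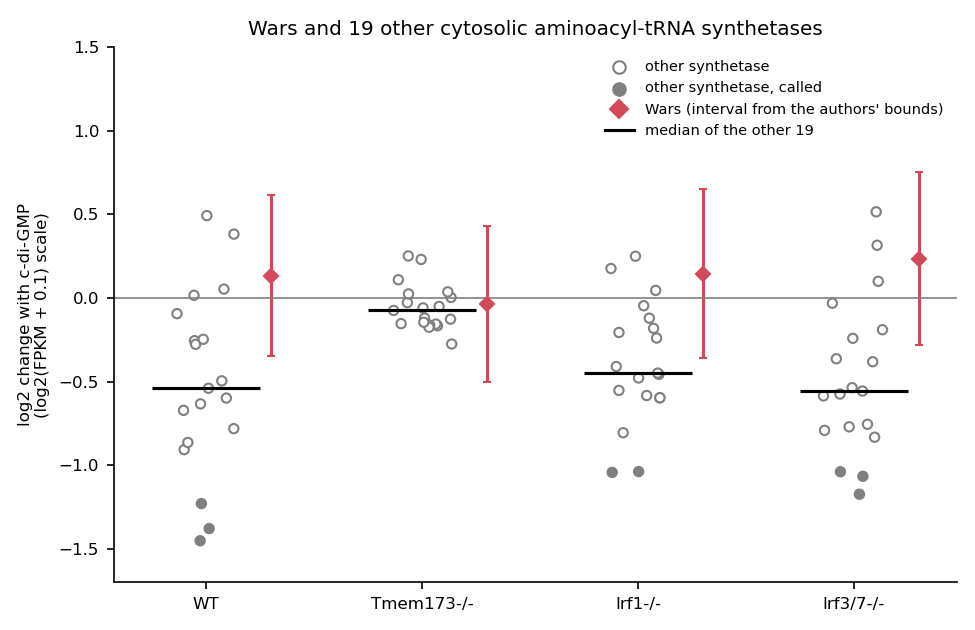
Log2 change with c-di-GMP (vertical axis) of Wars (diamonds, with 95% intervals from the authors' bounds) and 19 other cytosolic aminoacyl-tRNA synthetases (circles, filled where called) in 4 genotypes, with the median of the 19 as a line. The line lay at -0.54 in wild-type BMDCs and near 0 in Tmem173-/- BMDCs, and Wars lay near 0 in every genotype.

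Bcat1 was the gene with the opposite order to Ido1 between treated wild-type and treated IRF-deficient BMDCs. Its level was 1.19 FPKM (0.847 to 1.54) in untreated and 0.845 FPKM (0.609 to 1.08) in treated wild-type BMDCs. It was 0.224 and 0.228 FPKM in Tmem173-/-, 2.01 and 4.74 FPKM in Irf1-/-, and 1.70 and 5.20 FPKM in Irf3/7-/- BMDCs. The intervals of the treated Irf1-/- (3.66 to 5.83) and Irf3/7-/- BMDCs (4.03 to 6.38) overlapped each other and lay above all other conditions. Bcat1 rose with c-di-GMP in Irf1-/- (1.20, 0.73 to 1.66) and Irf3/7-/- BMDCs (1.56, 1.09 to 2.03), beside a value of -0.45 (-0.98 to 0.08) in wild-type BMDCs. The change exceeded that of wild-type by 1.65 (0.94 to 2.35) in Irf1-/- and 2.01 (1.30 to 2.72) in Irf3/7-/- BMDCs. In treated cells Bcat1 was higher than in wild-type by 2.36 (1.87 to 2.84) and 2.49 (2.005 to 2.97), above 99.5% and 99.4% of the genes tested. Treated wild-type BMDCs were below 1 FPKM, so Bcat1 was tested here only through the knockouts where it was high. These values and their ranks are a description. With a pseudocount of 1 FPKM the rise within Irf1-/- BMDCs was 0.93 and was no longer called.

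Bcat2, the mitochondrial counterpart, lay between 22.6 and 57.6 FPKM in all 8 conditions and was called with c-di-GMP in no genotype. Of 15 genes of branched-chain amino acid catabolism, Bcat2 included, all 15 were tested and only Ppm1k was called. Over all genes tested, 20.5% were called in wild-type, 17.5% in Irf1-/- and 17.9% in Irf3/7-/- BMDCs. Ppm1k, the phosphatase that activates the branched-chain ketoacid dehydrogenase, rose from 3.10 to 8.27 FPKM in wild-type, from 2.84 to 6.37 FPKM in Irf1-/- and from 2.32 to 7.72 FPKM in Irf3/7-/- BMDCs. It was 1.85 and 2.25 FPKM in Tmem173-/- BMDCs. The median log2 change of the 15 was -0.31 in wild-type, -0.16 in Irf1-/-, -0.41 in Irf3/7-/- and -0.08 in Tmem173-/- BMDCs.

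Read across the 7 genes, c-di-GMP called 2 of 6 tested genes in wild-type (both higher), none of 4 in Tmem173-/-, 2 of 5 in Irf1-/- (both higher) and 3 of 5 in Irf3/7-/- BMDCs (2 higher, Kmo lower). Over all genes tested, the calls were 20.5%, 0.0552%, 17.5% and 17.9% in the same order. Ido1 entered the wild-type count only through treated cells. Among treated cells against wild-type, 4 of 5 tested genes were lower in Tmem173-/- (26.3% of all genes called), 2 of 6 were called in Irf1-/- (7.56%) and 4 of 6 in Irf3/7-/- BMDCs (7.30%). The 3 comparisons share the treated wild-type condition. Ido1 was tested in all 3 only through treated wild-type BMDCs. Bcat1 was tested in Irf1-/- and Irf3/7-/- only through the treated knockouts. Counts that hold these genes are therefore a description. In untreated cells, all 5 tested genes were lower in Tmem173-/- than in wild-type BMDCs (11.0% of all genes called), namely Kynu (-2.10), Kmo (-1.63), Il4i1 (-1.21), Wars (-1.16) and Bcat1 (-1.997). Bcat1 entered this count only through untreated wild-type BMDCs. None of 5 was called in untreated Irf1-/- (4.78%) or Irf3/7-/- BMDCs (2.04%), and none of 5 between treated Irf1-/- and treated Irf3/7-/- BMDCs (9.84%). Summed neutrophil and macrophage markers were higher in Tmem173-/- than in wild-type BMDCs, although the macrophage marker Mertk was lower. Summed T and NK cell and mature DC markers were lower, as given above. The part of these cells in the lower levels was not tested.

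The interval of the difference in log2 change from wild-type left out 0 for 3 of 6 tested genes in Tmem173-/- (30.5% of all genes tested), 2 of 6 in Irf1-/- (7.65%) and 3 of 6 in Irf3/7-/- BMDCs (9.23%). Ido1 is counted in each of these, although it entered only through treated wild-type BMDCs.

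**Figure D5:**
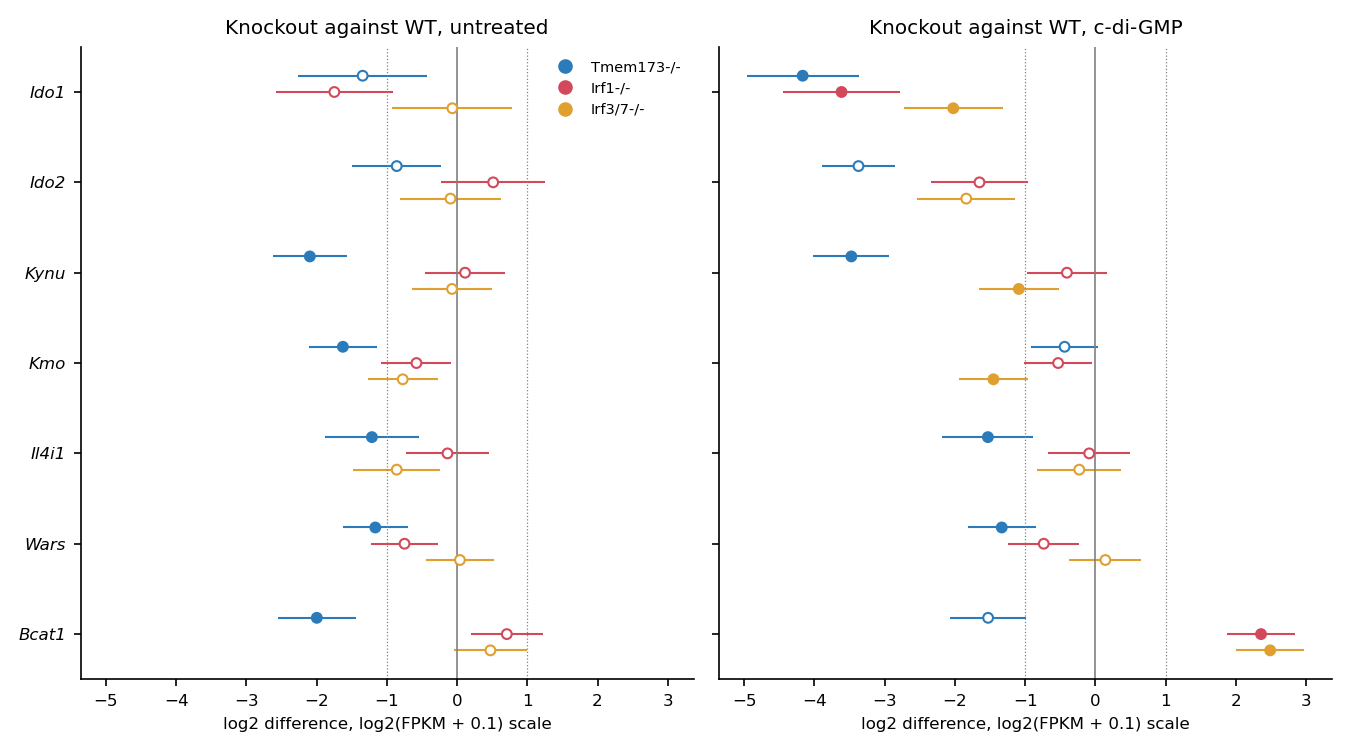
Log2 difference (horizontal axis) of each knockout from wild-type in untreated (left) and c-di-GMP-treated BMDCs (right), with 95% intervals from the authors' bounds. Filled points were called, and dotted lines mark 2-fold. In treated cells Ido1 lay below 0 in all 3 knockouts, and Bcat1 lay above 0 in Irf1-/- (2.36) and Irf3/7-/- BMDCs (2.49).

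Products of IDO1 and IL4I1 act on the aryl hydrocarbon receptor, so this receptor and its textbook targets were read as a list of 7 genes. With c-di-GMP 3 of 6 tested genes were higher in wild-type and 4 of 6 each in Irf1-/- and Irf3/7-/- BMDCs, with none lower. Over all genes tested, 20.5%, 17.5% and 17.9% were called in the same order, in either direction. Cyp1b1, a cytochrome P450, rose from 0.986 to 8.62 FPKM in wild-type, from 1.59 to 17.4 FPKM in Irf1-/- and from 1.18 to 7.59 FPKM in Irf3/7-/- BMDCs. Ahr itself rose from 2.73 to 6.46 FPKM in wild-type, from 1.55 to 8.84 FPKM in Irf1-/- and from 2.14 to 9.22 FPKM in Irf3/7-/- BMDCs. No gene of the list was called lower in treated Irf1-/- or Irf3/7-/- than in treated wild-type BMDCs. Cyp1b1 was higher in Irf1-/- BMDCs (1.01) and Nqo1, a quinone reductase, in Irf3/7-/- BMDCs (2.01). In treated Tmem173-/- BMDCs, Cyp1b1 (-4.19) and Tiparp (-1.52) were lower than in treated wild-type BMDCs and Nqo1 was higher (1.79). Ido1 was lower than wild-type in each treated knockout. The part of Ido1 or Il4i1 in the levels of these genes was not tested. With c-di-GMP, only Ahrr, the repressor of the receptor, was called within Tmem173-/- BMDCs (2.63 to 5.85 FPKM). It was 1 of 5 tested, where 0.0552% of all genes tested were called. The median log2 change of the tested genes was 0.81 in wild-type, 1.60 in Irf1-/-, 1.56 in Irf3/7-/- and 0.48 in Tmem173-/- BMDCs. The medians over all genes tested were 0.003, 0.002, 0.004 and -0.02 in the same order.

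Of 8 large neutral and glutamine transporters, 7 were tested. Slc7a8, a carrier of neutral amino acids, rose from 14.2 to 43.7 FPKM in wild-type and was also called higher in Irf1-/- and Irf3/7-/- BMDCs. Slc1a5, the glutamine carrier, fell from 53.1 to 14.0 FPKM in wild-type and was lower in the same knockouts. Slc7a11, the cystine carrier, was higher in wild-type (24.4 to 52.7 FPKM) and Irf3/7-/- BMDCs, and Slc43a2 was lower in Irf1-/- BMDCs. None was called in Tmem173-/- BMDCs. Among 8 genes of the amino acid response, Ddit3 (14.7 to 62.4 FPKM), Atf3 (170 to 480 FPKM) and Trib3 (2.77 to 5.78 FPKM) were higher in wild-type BMDCs. All 3 were also higher in Irf1-/- and Irf3/7-/- BMDCs, the latter with Chac1 in addition, and none was called in Tmem173-/- BMDCs. Asns, the asparagine synthetase gene that this response classically raises, was not called in any genotype and lay at 21.6 and 16.1 FPKM in wild-type BMDCs. Of 6 genes of phenylalanine and tyrosine catabolism, 2 were tested with c-di-GMP and neither was called. Shares called over all genes tested were 20.5% in wild-type, 17.5% in Irf1-/-, 17.9% in Irf3/7-/- and 0.0552% in Tmem173-/- BMDCs. Median log2 changes were -0.05 for the 7 transporters tested and 0.53 for the 8 amino acid response genes in wild-type BMDCs, and 0.14 and -0.04 in Tmem173-/- BMDCs. Medians over all genes tested were 0.003 in wild-type and -0.02 in Tmem173-/- BMDCs.

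The genes whose pattern was most like each of the others, by Pearson r of log2(FPKM + 0.1) over the 8 conditions, were H2-Oa (0.973), Ubd (0.968) and 4933412E12Rik (0.953) for Ido1. For Kynu they were Gpr15 (0.979), Pmepa1 (0.977) and Spsb1 (0.976), and for Il4i1 Cd83 (0.945), Tnfrsf11b (0.945) and Gpr15 (0.944). For Bcat1 they were Kif1a (0.937), 9130008F23Rik (0.936) and Pdlim1 (0.935). Kmo had no neighbour as close, with Vat1l (0.855), Rnase6 (0.851) and Cldn1 (0.845). Ido2 was left out because it did not reach 1 FPKM. Kmo and Il4i1 had an SD of 0.749 and 0.667, below the 1 log2 unit required of the genes compared. The 8 conditions share genotypes and treatment, so these values are descriptive.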

How the data were processed

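RNA-seq was analysed in 16 BMDC samples, 2 for each of 8 conditions. The authors ran Cuffdiff, which combined the samples of a condition, and deposited a table of FPKM, interval bounds and a status per condition. Column names were short. The 2 columns of Tmem173-/- BMDCs carried no suffix and a suffix unlike that of the other genotypes, and they were read as untreated and treated. The study's methods and the submitters' processing notes give different Cuffdiff versions, 1.06 in the notes. The notes name mm9, but 21454 of 21681 loci overlap the gene of the same name in a GRCm38 annotation, so positions are given in GRCm38. For Cuffdiff's strand setting, no value is given in the sources used here. A further 4 columns for another knockout were not used.

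Changes were computed as log2(FPKM + 0.1) in 11 comparisons over the whole table. A gene was tested at 1 FPKM or more in either condition with status OK in both, and called above 2-fold with the authors' intervals apart. Intervals of changes were propagated from the bounds, taking conditions as independent. Genes with the most similar patterns were searched among those with at least 10 FPKM in one condition and an SD of at least 1 log2 unit. All 7 genes were named throughout, and from each list at most the 3 called genes with the largest change, with others named for their role chosen after their values were seen. The members and lists were chosen with earlier results of these data known. Alternatives were other pseudocounts, filters and thresholds, and median centring. Analyses used python 3.11.15, numpy 2.4.6, pandas 2.3.3 and matplotlib 3.10.9.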

Additional observations from a re-analysis of the deposited data

Results flagged for a closer look

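The results below were picked out because the log2 change with c-di-GMP differed between a knockout and wild-type BMDCs, with a 95% interval of the difference that left out 0. For Ido1 the change was smaller than in wild-type by a difference of -2.82 (Tmem173-/-), -1.87 (Irf1-/-) or -1.96 (Irf3/7-/-). Ido1 reached 1 FPKM only in treated wild-type BMDCs, so its 3 values are a description. For Kynu the difference was -1.38 without STING and -1.02 without IRF3 and IRF7. For Kmo it was 1.19 in Tmem173-/- BMDCs, where the level was already low without c-di-GMP. For Bcat1 it was 1.65 in Irf1-/- and 2.01 in Irf3/7-/- BMDCs. All 8 values use the same wild-type conditions, and their intervals cover what the authors' software modelled and could not be checked against replicates.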

How the results depend on the processing

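No paired analysis was possible because the replicates had been combined before deposition and the columns carry no replicate number, and for the same reason leaving out a replicate could not be run. Of 409 recomputed values of single genes, 393 kept their direction and their side of the threshold, 14 became called, 2 were no longer called and none changed sign. The 2 were Bcat1 with a pseudocount of 1 FPKM, in treated against untreated Irf1-/- (0.93) and in untreated Tmem173-/- against wild-type BMDCs (-0.84). Counts of called genes moved by over 1.5 times as follows. A minimum of 5 FPKM left 1 in wild-type and 1 in Irf1-/- BMDCs with c-di-GMP, and 0 between treated Irf1-/- and wild-type BMDCs, as low genes were no longer tested. A pseudocount of 1 FPKM left 1 in Irf1-/- BMDCs with c-di-GMP. Without the filter on low values, Ido1 gave 1 call in untreated Irf1-/- against wild-type BMDCs and 1 between treated Irf1-/- and Irf3/7-/- BMDCs. A 1.5-fold threshold gave 1 call in untreated Irf1-/- (Wars) and 1 in untreated Irf3/7-/- BMDCs against wild-type (Kmo), and 2 between treated Irf1-/- and Irf3/7-/- BMDCs (Kmo and Wars). Smaller moves were losses of 1 gene with a minimum of 5 FPKM in treated Tmem173-/- (Ido1) and Irf3/7-/- (Ido1) and in untreated Tmem173-/- (Bcat1) against wild-type BMDCs, the last also with a pseudocount of 1 FPKM. Gains were from 2 to 3 without the filter in wild-type BMDCs with c-di-GMP and in treated Irf1-/- against wild-type BMDCs (Ido2), and from 4 to 6 (Ido2 and Bcat1) and 4 to 5 (Ido2) in treated Tmem173-/- and Irf3/7-/- against wild-type BMDCs. At 1.5-fold, wild-type and Irf1-/- BMDCs with c-di-GMP gained Kmo, and treated Irf1-/- against wild-type BMDCs gained Wars, each from 2 to 3. For the differences of the change from wild-type, alternatives chosen after seeing the data kept 50 of 54 values. With a pseudocount of 0.01 FPKM, the interval of Ido1 in Irf1-/- BMDCs included 0 (-1.48). Median centring turned the sign of 3 differences in Irf1-/- BMDCs whose intervals included 0 throughout, Kmo (-0.015), Il4i1 (-0.014) and Wars (-0.050). Depth is unknown, and Ido1 and Ido2 have the widest intervals.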
